A study of Mus musculus with 4 samples.

Results

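The mitochondrially encoded transcripts are the RNAs copied from the mitochondrial genome itself, and they were measured in nuclei of mouse ventricle. They were taken as every gene in the deposited gene list whose symbol starts with mt-, which gave 37 of 25906 genes: 13 protein-coding genes, 2 ribosomal RNA genes and 22 transfer RNA genes. The study compared wild-type (WT) C57BL/6J mice, male and female, 8 weeks old at the start, in 4 groups with 1 library each: sedentary mice, mice that ran for 16 weeks, sedentary mice 2 weeks after a myocardial infarct, and mice that ran for 16 weeks and were examined 2 weeks after an infarct. Hearts were pooled before the nuclei were sorted on a DNA dye, 2 hearts for each library without infarct and 4 for each library with infarct, so a library is 1 sample whatever its number of nuclei. With 1 library per group no test of a group difference was possible, running or infarct and the library itself cannot be told apart, and every interval below covers counting error only.

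The mitochondrial genome is a small circle kept in many copies per cell outside the nucleus. A dedicated RNA polymerase copies each strand into long precursors, which are cut apart largely at the transfer RNAs that lie between the other genes. The proteins it encodes are membrane subunits of respiratory complexes I, III and IV and of the ATP synthase, complex V, and all other subunits of these machines come from nuclear genes. Heart muscle is known for its dense mitochondria. In an assay on isolated nuclei such transcripts come with material from outside the nucleus, whether left attached to it or free in the droplet, so a level here is not a level per cell. RNA attached to a nucleus and RNA free in the droplet cannot be told apart in these counts, and neither can more mitochondrial RNA in the tissue and more of it carried over.

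The assay primes on runs of A, so the ends of these RNAs are shown for the genes on which the results turn. The sequences are those of the GENCODE vM21 transcripts (GRCm38), matched by gene identifier for all 37 genes, while the files were made on GRCm39, so no position is given. The last 30 bases of 6 of the 13 coding genes follow, 5′ to 3′, with the last bases of the reading frame in capitals. In 10 of the 13 genes these are a complete stop codon, and in mt-Co3, mt-Nd4 and mt-Cytb the frame ends on a single T, which the poly(A) tail completes to a stop.
mt-Co1 (cytochrome oxidase subunit, complex IV): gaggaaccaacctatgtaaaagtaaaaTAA
mt-Co3 (cytochrome oxidase subunit, complex IV): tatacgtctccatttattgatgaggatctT
mt-Cytb (cytochrome b, complex III): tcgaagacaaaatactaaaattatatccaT
mt-Nd4 (complex I): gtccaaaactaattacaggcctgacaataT
mt-Nd2 (complex I): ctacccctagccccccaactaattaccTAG
mt-Nd6 (complex I, read from the other strand): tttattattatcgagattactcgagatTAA

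The ribosomal RNAs and transfer RNAs have no such stop. For the ribosomal RNAs the 10 bases richest in A are shown in capitals with 10 bases on either side, and 9 of these 10 bases were A in mt-Rnr2 and 8 in mt-Rnr1. Such a stretch is not particular to ribosomal RNA, as mt-Co1 and mt-Nd2 also have 10 bases with 9 A. The transfer RNA with the most UMIs, mt-Ti, is shown whole, over its 69 bases.
mt-Rnr2 (large-subunit ribosomal RNA), bases 385 to 414 of 1582: taaacttgctAAAAAAACAAcaaaatcaaa
mt-Rnr1 (small-subunit ribosomal RNA), bases 656 to 685 of 955: aaaagaatcaAACATAAAAAcgttaggtca
mt-Ti (transfer RNA for isoleucine): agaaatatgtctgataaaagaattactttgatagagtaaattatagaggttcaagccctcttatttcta

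In the reference mt-Ti begins 2 bases before mt-Nd1 ends, on the same strand. The gene models of mt-Atp8 and mt-Atp6 overlap by 43 bases and those of mt-Nd4l and mt-Nd4 by 7, and mt-Nd5 and mt-Nd6 overlap by 14 bases on opposite strands. How reads in such overlaps, and reads shared with nuclear copies of mitochondrial DNA, were counted is not given in the sources used here.

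The libraries held 5388 (sedentary), 6253 (running), 3243 (sedentary infarct) and 4922 (running infarct) barcodes and 26170995 to 37533722 UMIs (unique molecular identifiers, counted molecules) each. Barcodes with at least 300 genes were used with no upper limit on the mitochondrial share, which left 5385, 6248, 3240 and 4916. Between 2 and 12 barcodes were shared by any 2 libraries. Cell classes were rebuilt from marker genes with the mitochondrial genes left out, so that a class does not depend on what is measured here. In all, 10 classes had at least 30 nuclei in 2 or more libraries, and 9 of them in all 4. Clusters that stayed unnamed held 7.1 to 13.1% of the nuclei kept, and mixed clusters with high doublet scores another 8.54 to 9.85%. The mixed clusters held 33.6, 33.1, 39.5 and 40.6% of the mitochondrial UMIs of their libraries, which enter every value over all barcodes and no value of a class.

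The running library held the largest mitochondrial share of UMIs and the running infarct library the smallest. The share, that is, UMIs on the 37 genes out of all UMIs, was 6.21% in the sedentary library, 9.65% in the running library, 4.69% in the sedentary infarct library and 3.93% in the running infarct library. All 37 genes were detected, and no barcode had 0 mitochondrial UMIs. The middle nucleus of each library gave 6.26, 10.2, 4.67 and 4.68% in the same order, so by this measure the infarct libraries lay side by side.

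The ratio of shares was 1.55 for running over sedentary (95% interval 1.55 to 1.56), 0.755 for sedentary infarct over sedentary (0.753 to 0.756), 0.407 for running infarct over running (0.406 to 0.408) and 0.838 for running infarct over sedentary infarct (0.836 to 0.840). The first and the last compare running with no running, without and with infarct, and they point opposite ways, although by the medians of the nuclei the infarct libraries differed by 0.0028 on the log2 scale. Both infarct comparisons point down. With nuclei over 5% left out, a common limit that selects on the measured value, the ratios were 1.07, 0.938, 0.887 and 1.01, because that limit removed 91.8% of the nuclei of the running library and 44.0 to 65.5% of the others. Without the mixed clusters the ratios were 1.53, 0.792, 0.450 and 0.867.

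Few nuclei had very high shares. Above 20% lay 43, 115, 34 and 13 nuclei, and above 50% lay 0, 3, 1 and 0. The lowest share of any nucleus was 0.146%, in the running infarct library. The single barcode with the most mitochondrial UMIs was in the running library, with 88497 of its 732016 UMIs.

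The higher share in the running library was seen in every class. Its nuclei had the highest median of the 4 libraries in 9 of 9 classes, and the ratio of medians over the sedentary library ran from 1.45 in vascular endothelial-like to 1.96 in fibroblast-like nuclei. Running infarct was lower than running in 9 of 9 classes, with ratios from 0.352 in fibroblast-like to 0.621 in cardiomyocyte-like nuclei. Sedentary infarct against sedentary was split, with 3 classes higher and 6 lower, and running infarct against sedentary infarct had 5 higher and 5 lower of 10.

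Haemoglobin mRNA, which belongs to red blood cells, went the same way as the share in 2 of the 4 comparisons. Summed over Hba-a1, Hba-a2, Hbb-bs and Hbb-bt it was higher in the running than in the sedentary library in 9 of 9 classes, 1.82 to 4.66 times, and lower in running infarct than in running in 9 of 9. It was also higher in sedentary infarct than in sedentary in 8 of 9 classes, where the median share was lower in 6 of 9. For running infarct over sedentary infarct it was higher in 7 of 10 classes, where the median share was higher in 5 and lower in 5. In cardiomyocyte-like nuclei haemoglobin mRNA stood at 98.6, 233, 137 and 186 CPM of nuclear-gene UMIs (UMIs of a class in a library, scaled to the same total), in fibroblast-like nuclei at 106, 273, 126 and 160, and in vascular endothelial-like nuclei at 246, 1146, 413 and 379. For running over sedentary, abundant cardiomyocyte mRNAs were higher in 3 of 9 classes, 0.707 to 1.07 times, and ribosomal protein mRNAs in 0 of 9. The part of RNA from other cells in the class values was not tested.

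Cardiomyocyte-like nuclei, from the class with the most mitochondria in the tissue, did not have the largest shares. Their shares were 5.21, 7.82, 5.10 and 4.37%, and by median they ranked 6 of 9 (sedentary), 8 of 9 (running), 3 of 10 (sedentary infarct) and 3 of 10 (running infarct) among classes with at least 30 nuclei. In the sedentary library the highest median, 7.18%, was that of vascular endothelial-like nuclei, and the lowest, 4.08%, that of the 41 smooth muscle-like nuclei. In number of molecules cardiomyocyte-like nuclei led, with medians of 373, 626, 427 and 177 mitochondrial UMIs against 155, 211, 98.5 and 85 in vascular endothelial-like nuclei. The last cardiomyocyte-like value comes with lower depth, as the median nucleus there had 3422 UMIs on nuclear genes against 7872, 7589 and 9135 in the other libraries.

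In cardiomyocyte-like nuclei the log2 ratio of shares was 0.59 for running over sedentary, -0.031 for sedentary infarct over sedentary, -0.84 for running infarct over running and -0.22 for running infarct over sedentary infarct. The infarct comparison in sedentary mice was thus close to 0, and its side depended on the measure, as the medians of the nuclei gave 0.13. The pools held both sexes, so nuclei with at least 2 UMIs on 4 Y-linked genes and nuclei with none were also compared. The Y-positive nuclei gave log2 ratios of 0.55, -0.045, -0.91 and -0.32 and the Y-negative nuclei 0.68, 0.0090, -0.90 and -0.22. In the library order used above there were 304, 315, 92 and 64 Y-positive nuclei against 408, 299, 269 and 330 Y-negative ones. Y-positive nuclei were thus relatively fewer after infarct. Y-negative nuclei were also shallower, with median UMIs of 7535.5, 6774, 8611 and 2600.5 against 9566.5, 9614, 11942 and 9891. A shallow nucleus can miss these genes, so Y-negative need not mean female. The part of sex in the ratios was not tested.

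Fibroblast-like nuclei had the lowest median shares after infarct, 2.65% without and 3.58% with running. Their pooled shares were 5.84, 10.4, 3.30 and 3.31%, a ratio of 0.566 for infarct in sedentary mice and 0.318 in running mice, and the infarct libraries were level. A cluster led by Cemip, Col11a1 and Col12a1, the last 2 collagen genes, held 26.6% and 42.1% of the fibroblast-like nuclei of the infarct libraries and only 1 and 3 nuclei of the others, and its shares were 2.28 and 2.62%. Without it and the smaller cluster 20, which held 20 to 28 nuclei of a library, the infarct ratios were 0.661 and 0.376.

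Endocardial-like and mesothelial-like nuclei had higher pooled shares in the sedentary infarct than in the sedentary library, 7.48% against 6.92% and 8.29% against 7.03%. The pooled mesothelial-like value leaned on few nuclei, since 10 of 149 held 27.9% of the mitochondrial UMIs and the median was 6.14%. The medians rose too, as their mesothelial-like ratio over the sedentary library was 1.24, the highest of 9 classes. In the running infarct library the pooled shares of both classes were lower, at 5.15% and 4.24%.

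**Figure D1:**
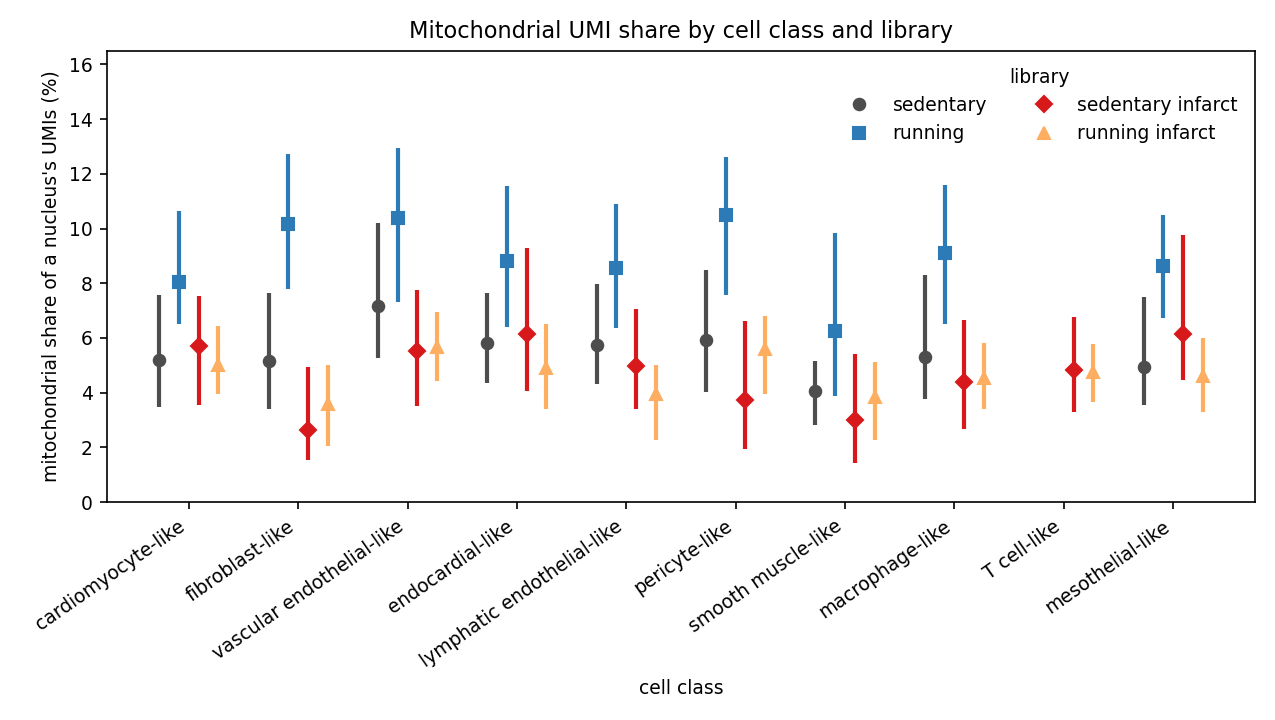
Median mitochondrial share of the UMIs of a nucleus (percent, points) with the 25th to 75th percentile of nuclei (bars), for each class and library with at least 30 nuclei. The running library has the highest median in all 9 classes present in every library, from 6.25% in smooth muscle-like to 10.5% in pericyte-like nuclei.

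Shallow nuclei had the larger shares. Among nuclei with under 1000 UMIs on nuclear genes the median share was 12.6, 13.8, 8.43 and 6.40%, and among those with 5000 to 10000 it was 4.97, 8.44, 3.70 and 3.52%. The Spearman correlation of share with nuclear-gene UMIs over nuclei was -0.45, -0.46, -0.35 and -0.57, as a description only, because both hold the same nuclear-gene UMIs and the nuclei share a library. The running library had the highest median in all 5 depth bins, and the running infarct library the lowest in 4 of 5, the exception being 2000 to 5000 UMIs, where the infarct libraries stood at 4.30 (sedentary) and 4.42% (running). Within that bin the ratios of pooled shares were 1.54, 0.833, 0.455 and 0.839.

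**Figure D2:**
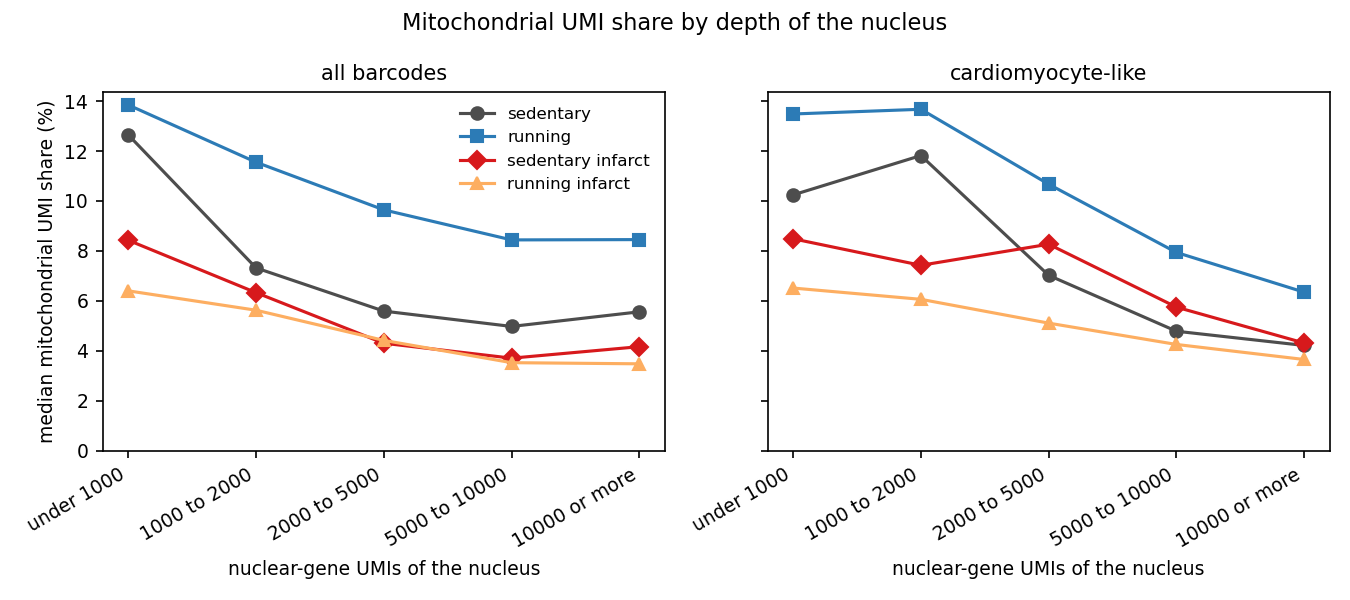
Median mitochondrial share of UMIs (percent) by the number of nuclear-gene UMIs of the nucleus, for all barcodes and for cardiomyocyte-like nuclei, 1 line per library. In the left panel the running library lies above the others in every bin, from 13.8% down to 8.44 and 8.45%.

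The largest shares belonged to clusters of low depth. Unnamed cluster 2, led by the haemoglobin genes Hbb-bs and Hba-a1, had a median of 501 to 721 nuclear-gene UMIs and shares of 12.9, 14.0, 10.4 and 6.99%. The cardiomyocyte-like nuclei fell into cluster 11, with 4.91, 7.38, 4.78 and 3.99%, and cluster 15 of low depth, with 12.9, 14.7, 13.1 and 6.69%. Cluster 15 held 13.5, 18.1, 20.1 and 50.9% of the cardiomyocyte-like nuclei, so the running infarct class held the most shallow nuclei. Without cluster 15 the log2 ratios of the class were 0.59, -0.039, -0.89 and -0.26.

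The gene kinds differed. Relative to UMIs on nuclear genes, the mRNAs together were 1.68 times as high in the running as in the sedentary library, the transfer RNAs 1.27 times (1.23 to 1.31) and the ribosomal RNAs 1.05 times (1.05 to 1.06). Over the 9 classes the mRNA ratio was above 1 in 9, from 1.20 to 1.96, while the ribosomal RNA ratio was above 1 in only 3, from 0.826 to 1.22. A higher mitochondrial share in the running library was thus a higher share of mitochondrial mRNA, with ribosomal RNA near its level in the sedentary library.

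Summed over the genes of a kind, the kinds lay closer together after infarct. For sedentary infarct over sedentary the ratios were 0.748 for mRNA, 0.699 for ribosomal RNA and 0.710 for transfer RNA, and for running infarct over running 0.380, 0.416 and 0.390. Between the infarct libraries mRNA stood at 0.854, ribosomal RNA at 0.628 and transfer RNA at 0.698, so in this comparison too ribosomal RNA had the lowest ratio of the 3 kinds in the library of running mice. The medians of single genes were 0.680, 0.694 and 0.694 for sedentary infarct over sedentary. For running infarct over running they were 0.295 for mRNA, 0.424 for ribosomal RNA and 0.415 for transfer RNA, so by gene the mRNAs lay lower there.

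Gene by gene, a ratio was taken where the 2 libraries together held 100 UMIs or more, which kept 35 of the 37 genes in the first 3 comparisons and 34 in the last. For running over sedentary, 17 of 35 were at least 1.5-fold higher, where 3.74% of all 14960 genes were, and 0 were 1.5-fold lower, where 1.56% of all genes were. The 17 were 12 mRNAs and 5 transfer RNAs, and the remaining mRNA, mt-Co3, stood at 1.48. For sedentary infarct over sedentary 0 were 1.5-fold higher and 14 of 35 lower, against 7.94% and 6.35% of all genes. All 35 were 1.5-fold lower for running infarct over running, against 9.77% of all genes, and none higher, against 9.56%. For running infarct over sedentary infarct 8 of 34 were lower, against 3.54%, and 0 higher, against 4.29%. These genes share a genome and precursors and are not independent of one another.

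**Figure D3:**
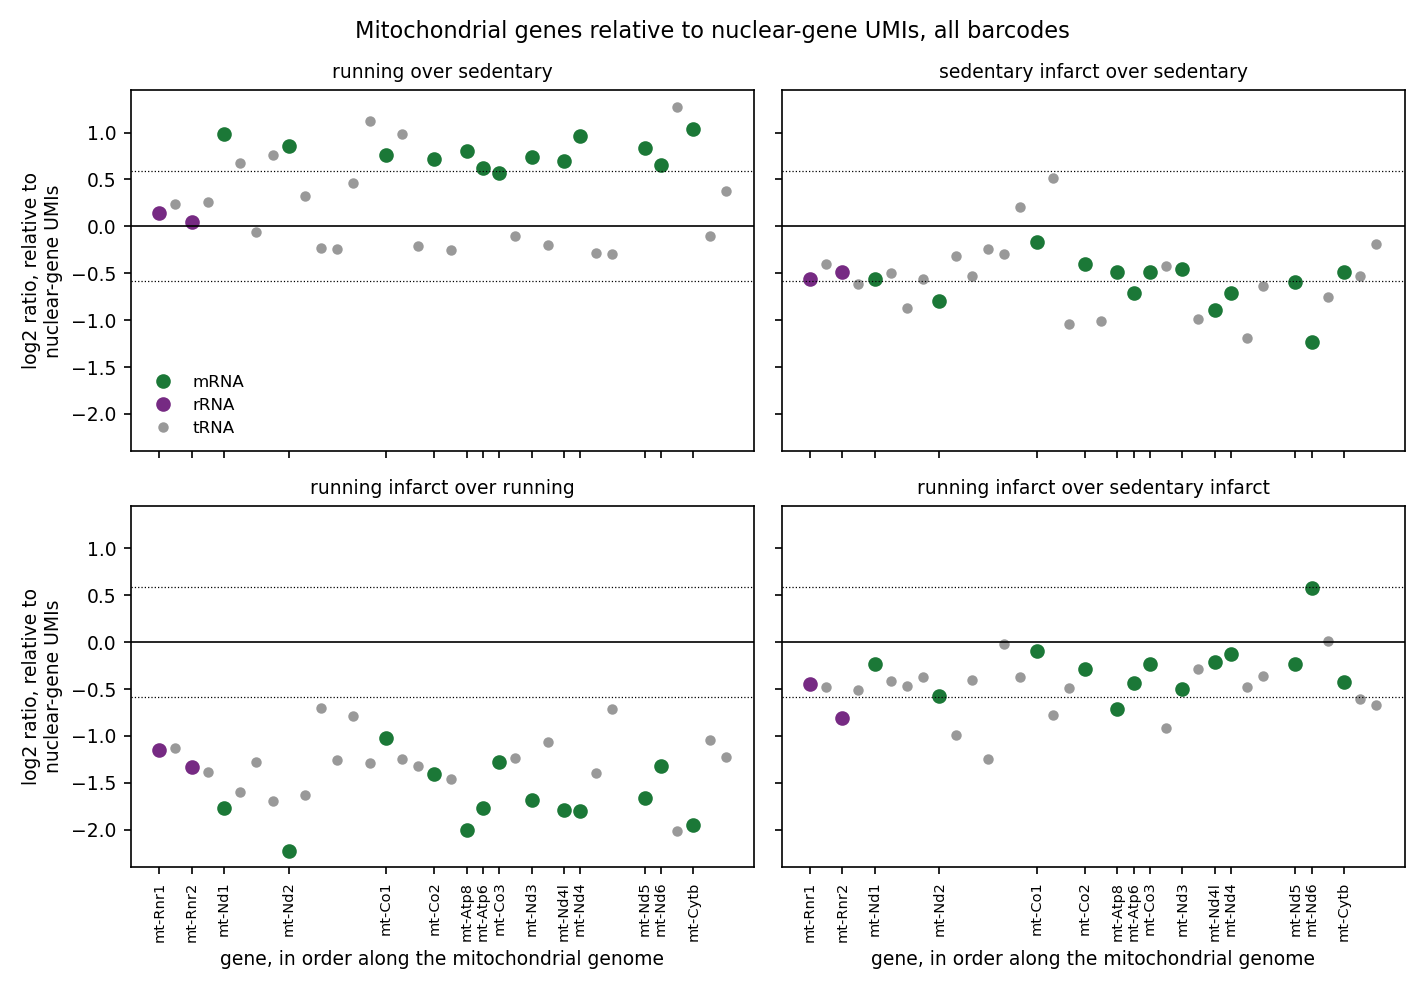
Log2 ratio of each mitochondrial gene relative to nuclear-gene UMIs, all barcodes, for the 4 comparisons, with genes placed in their order along the mitochondrial genome and dotted lines at 1.5-fold. For running over sedentary the 13 mRNAs lie between 0.57 and 1.03 and the 2 ribosomal RNAs at 0.04 and 0.14.

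Within the mitochondrial total, mRNA made up 89.1, 92.8, 89.8 and 92.2% of the UMIs, ribosomal RNA 10.5, 6.85, 9.85 and 7.45%, and transfer RNA 0.411, 0.324, 0.393 and 0.330%. Ribosomal RNA, which in cells far exceeds mitochondrial mRNA, is thus a minor part of what this assay on poly(A) counts. The libraries of running mice had the smaller ribosomal parts, without and with infarct.

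Complex IV, the cytochrome oxidase that passes electrons to oxygen, took the largest part, 54.8, 54.9, 59.9 and 64.4% of the mitochondrial UMIs. Its catalytic subunit mt-Co1 (ENSMUSG00000064351) held 27.9, 29.2, 33.4 and 37.7%. Both infarct libraries were above both others for this gene. Within the total it was 1.20 times as high in sedentary infarct as in sedentary and 1.29 times in running infarct as in running, in 8 of 9 and 9 of 9 classes, and 1.13 times in running infarct as in sedentary infarct, in 10 of 10.

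The other complex IV subunits varied little. mt-Co2 (ENSMUSG00000064354) held 9.84, 10.1, 10.0 and 9.89%, and its ratios stayed between 0.984 and 1.02. mt-Co3 (ENSMUSG00000064358) held 17.1, 15.7, 16.4 and 16.9%, lowest in the running library, and was lower there than in the sedentary library in 9 of 9 classes. By UMIs mt-Co1 was ahead of mt-Co3 in each library. Divided by transcript length, which a count of molecules need not follow, mt-Co3 came first and mt-Co1 second in the libraries without infarct. They stood at 21.8 against 18.0% of the total per kilobase in the sedentary and 20.0 against 18.9% in the running library. The order was reversed in the infarct libraries, at 21.0 against 21.6% and 21.5 against 24.4%.

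Complex I, which takes electrons from NADH, has 7 mitochondrial subunits, and together they held 18.7, 21.3, 16.2 and 15.7% of the total. mt-Nd4 (ENSMUSG00000064363) held 5.31, 6.40, 4.38 and 4.82%, and mt-Nd1 (ENSMUSG00000064341) 3.67, 4.51, 3.35 and 3.45%. Both were higher in running than in sedentary in 9 of 9 classes and lower in running infarct than in running in 9 of 9. mt-Nd2 (ENSMUSG00000064345) held 3.67, 4.11, 2.84 and 2.30%, with a ratio of 0.774 for infarct in sedentary and 0.559 in running mice, lower in 9 of 9 classes each time.

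The remaining complex I genes of this strand were mt-Nd3, mt-Nd5 and mt-Nd4l. mt-Nd3 (ENSMUSG00000064360) held 4.13, 4.27, 4.07 and 3.47%, mt-Nd5 (ENSMUSG00000064367) 1.02, 1.12, 0.908 and 0.930%, and mt-Nd4l (ENSMUSG00000065947) 0.817, 0.819, 0.594 and 0.617%. mt-Nd4l was lower in both infarct libraries than in the library without infarct in 9 of 9 classes. Per kilobase mt-Nd5 was the lowest mRNA of its strand in each library. It held 0.557% of the total per kilobase in the sedentary library against 3.85% for mt-Nd4. By UMIs mt-Nd4l and mt-Atp8 held less than mt-Nd5 in each library.

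Complex III has 1 mitochondrial subunit, cytochrome b, from mt-Cytb (ENSMUSG00000064370). It held 5.15, 6.54, 4.95 and 4.43% of the total, highest in the running library. Running over sedentary gave 1.27, higher in 9 of 9 classes, and running infarct over running gave 0.679, lower in 9 of 9. Between the infarct libraries the ratio was 0.896, lower in 10 of 10 classes, so the running libraries stood on opposite sides without and with infarct. In some of these classes the counting interval held 1, as in mesothelial-like nuclei with 0.992 (0.938 to 1.05).

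Complex V, the ATP synthase, has 2, mt-Atp6 (ENSMUSG00000064357) and mt-Atp8 (ENSMUSG00000064356), read from 1 shared mRNA. mt-Atp6 held 9.86, 9.38, 8.10 and 7.22%, and was lower after infarct in 9 of 9 classes in sedentary mice, with a ratio of 0.822 over all barcodes, and in 9 of 9 in running mice, with 0.770. mt-Atp8 held 0.616, 0.668, 0.594 and 0.435%, and was lower in running infarct than in sedentary infarct in 10 of 10 classes, with a ratio of 0.733.

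Both ribosomal RNAs had their smallest parts in the libraries of running mice. mt-Rnr2 (ENSMUSG00000064339), with the A-rich stretch shown above, held 6.75, 4.31, 6.46 and 4.46% of the total, and mt-Rnr1 (ENSMUSG00000064337) 3.72, 2.54, 3.39 and 2.99%. The mt-Rnr2 ratio was 0.638 (95% interval 0.634 to 0.643) for running over sedentary, lower in 9 of 9 classes, and 0.690 for running infarct over sedentary infarct, lower in 10 of 10. For mt-Rnr1 these were 0.682 and 0.883, in 9 of 9 and 10 of 10. Over all barcodes the infarct comparisons in sedentary and in running mice gave 0.958 and 1.03 for mt-Rnr2 and 0.911 and 1.18 for mt-Rnr1. The classes were split for mt-Rnr2, with 6 higher and 3 lower in sedentary mice, from 0.605 in mesothelial-like to 1.67 in macrophage-like nuclei, and 5 higher and 4 lower in running mice, from 0.788 to 1.30. The cardiomyocyte-like ratio in sedentary mice, 1.13, leaned on few nuclei. In cluster 15 of the sedentary infarct library 10 of 77 nuclei held 83.9% of the mt-Rnr2 UMIs. In cluster 11 the part of mt-Rnr2 was lower, 4.65% in sedentary infarct against 5.11% in sedentary. For mt-Rnr1 there were 2 higher and 7 lower in sedentary mice, 0.866 to 1.06, and 7 higher and 2 lower in running mice, 0.912 to 1.48.

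**Figure D4:**
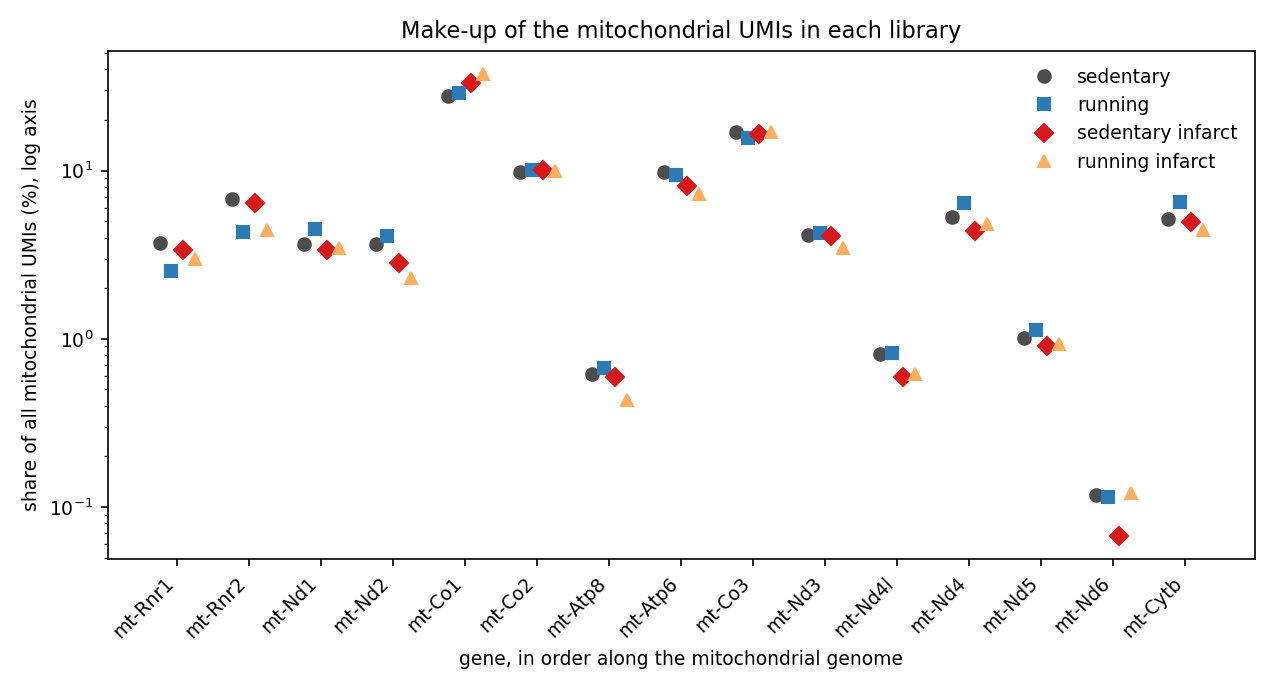
Share of all mitochondrial UMIs (percent, log axis) held by each coding and ribosomal RNA gene, in order along the mitochondrial genome, 1 point per library. mt-Co1 lies at 27.9% in the sedentary and 37.7% in the running infarct library, and mt-Rnr2 at 6.75 and 6.46% in the libraries of sedentary mice and 4.31 and 4.46% in those of running mice.

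By the 1.5-fold rule within the mitochondrial total, 11 of 35 genes (31.4%) were lower and 0 higher for running over sedentary, namely mt-Rnr2 and 10 transfer RNAs. For sedentary infarct over sedentary 3 were lower (8.57%), mt-Nd6 and the transfer RNAs mt-Td and mt-Th, and 2 higher (5.71%), mt-Ts1 and mt-Ty. For running infarct over running 3 were lower (8.57%), mt-Nd2, mt-Atp8 and the transfer RNA mt-Te, and 3 higher (8.57%), mt-Ta, mt-Tc and mt-Ts2. For running infarct over sedentary infarct 3 transfer RNAs were lower (8.82%), mt-Tn, mt-Tw and mt-Tg, and mt-Nd6 was higher (2.94%). The transfer RNAs named here had 46 to 644 UMIs in a library.

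Transfer RNAs, which carry amino acids to the mitochondrial ribosome and have no long poly(A) tail, gave 28843 UMIs in all 4 libraries. Of the 22 genes, 21 had at least 100 UMIs over the 4 libraries, and mt-Tf had 75. mt-Ti, whose start overlaps the end of mt-Nd1, led with 2313, 4072, 1320 and 1142 UMIs, which was 27.5, 34.7, 27.4 and 29.4% of all transfer RNA UMIs. It kept its part of the mitochondrial total for running over sedentary, at a ratio of 0.993, where the middle of 20 transfer RNAs was 0.664.

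mt-Tm came second over the 4 libraries, with 692, 1284, 378 and 336 UMIs, and its ratio for running over sedentary was 1.05. mt-Tv, between the ribosomal RNA genes, had 749, 974, 459 and 379 UMIs, and its ratio for running over sedentary was 0.734. That lay above the ribosomal RNAs on either side (0.638 and 0.682) and above the middle of 20 transfer RNAs (0.664). Relative to nuclear genes, 5 transfer RNAs were at least 1.5-fold higher in running than in sedentary: mt-Te (2.42), mt-Ty (2.17), mt-Ts1 (1.97), mt-Tm (1.69) and mt-Ti (1.60). mt-Te had only 131 and 348 UMIs, and its neighbours in the reference are mt-Nd6 and mt-Cytb. Over the 4 libraries mt-Ty and mt-Ts1 had fewer UMIs still, 397 and 362 against 615 for mt-Te.

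The other strand gave few molecules. It carries mt-Nd6 and 8 of the transfer RNAs, and together they held 0.232, 0.196, 0.188 and 0.216% of the mitochondrial UMIs. mt-Nd6 (ENSMUSG00000064368), the only complex I subunit on it, had 2397, 4149, 823 and 1412 UMIs, or 0.117, 0.115, 0.0671 and 0.120% of the total. The sedentary infarct library was low for it, at 0.572 times the sedentary library, in 8 of 9 classes, and the running infarct library was 1.79 times as high, in 9 of 10. Relative to nuclear genes the latter was 1.49 times, so mt-Nd6 was the 1 mRNA of 13 that was higher in the running infarct than in the sedentary infarct library.

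Cell classes differed in the make-up of their mitochondrial UMIs. mt-Rnr2 held 11.8, 7.17, 11.1 and 6.38% in vascular endothelial-like nuclei and 6.19, 4.30, 6.99 and 4.88% in cardiomyocyte-like nuclei. The 6.99% of the sedentary infarct library leaned on few nuclei of cluster 15. mt-Rnr1 was lowest in cardiomyocyte-like nuclei in each of the 4 libraries, at 3.09, 2.09, 2.82 and 2.68%. In turn mt-Cytb, mt-Nd5 and mt-Nd4l were highest of all classes in cardiomyocyte-like nuclei in each library, with 5.92, 7.40, 5.92 and 5.20% for mt-Cytb. mt-Co1 varied less between classes, from 24.2% to 29.4% in the sedentary library.

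To put a size on it, the share of mitochondrial UMIs that would have to move to another gene to turn one make-up into another was computed. Between 2 classes of 1 library it had a median of 5.46, 4.29, 5.12 and 2.75%. For the same class in 2 libraries the median was 6.59% for running and sedentary, 5.51% for sedentary infarct and sedentary, 10.0% for running infarct and running and 6.93% for the infarct libraries. Running and running infarct were thus farther apart within a class, 9.36 to 12.7%, than any 2 classes of the sedentary or running library, which reached 8.82 and 6.85%. In the sedentary infarct library 2 classes, vascular endothelial-like and mesothelial-like, were up to 10.3% apart, which lies inside that range.

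**Figure D5:**
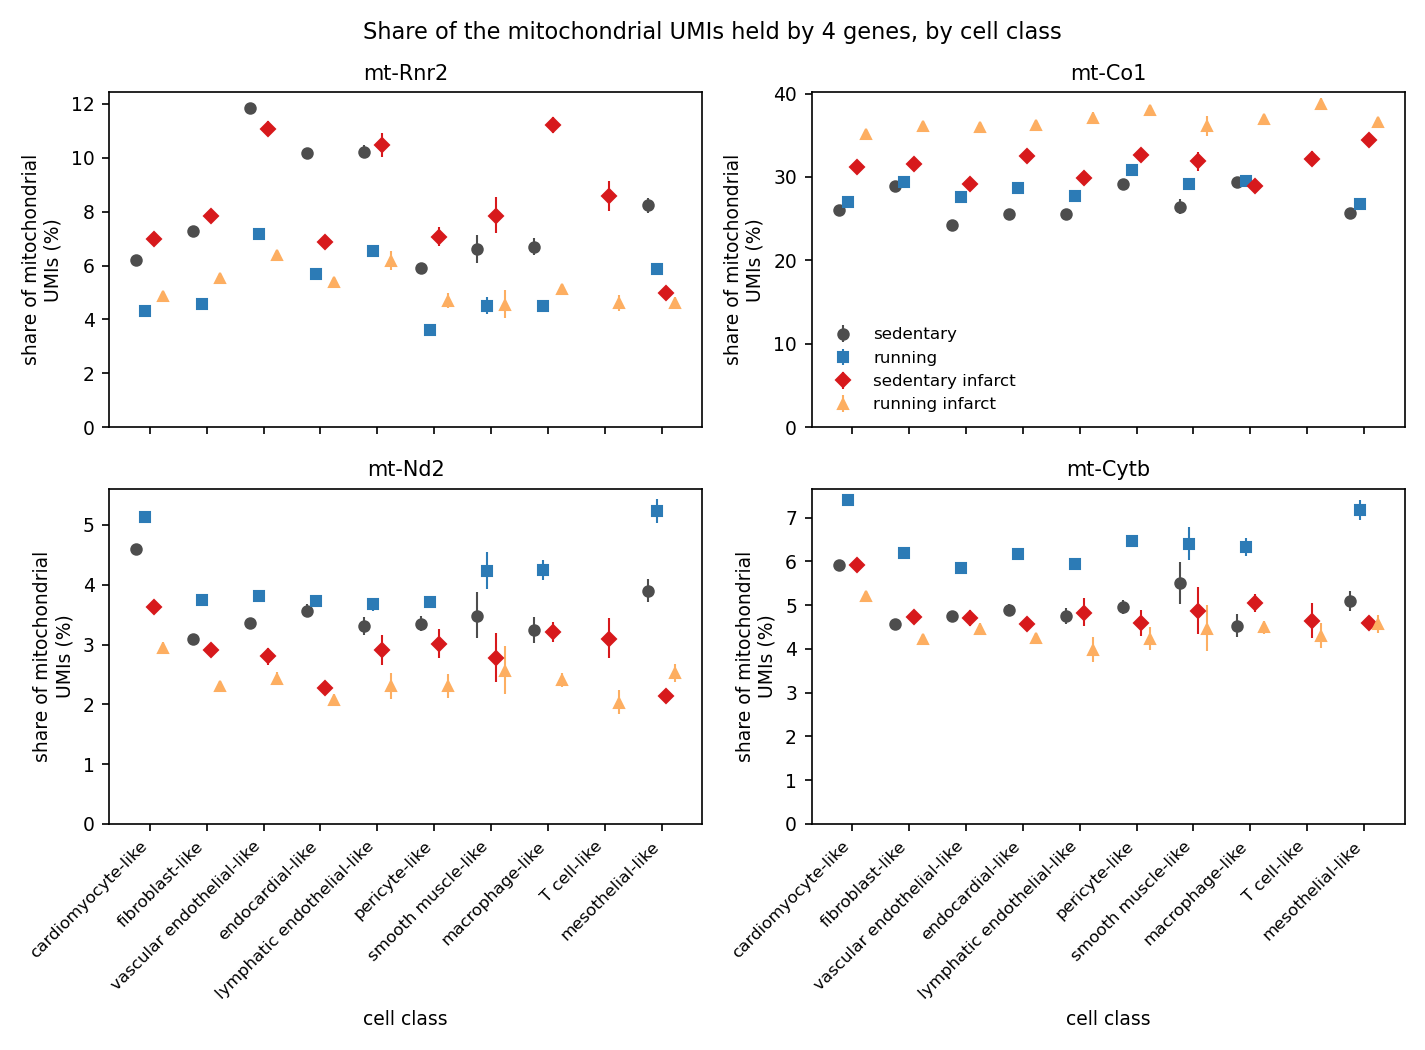
Share of the mitochondrial UMIs (percent) held by mt-Rnr2, mt-Co1, mt-Nd2 and mt-Cytb in each class and library with at least 30 nuclei, with exact 95% binomial intervals for counting error. mt-Rnr2 is lower in the running than in the sedentary library in all 9 classes, and mt-Co1 is highest in the running infarct library in each class.

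Between nuclei of 1 class mt-Rnr2 varied most. Among nuclei with at least 200 mitochondrial UMIs the spread of a gene's part over nuclei was set against the spread that counting alone gives. In the 4 largest classes the median gene had 1.17 to 1.38 times that spread, and mt-Rnr2 had the largest value in each of the 16 class and library pairs, 2.23 to 5.79 times. In sedentary vascular endothelial-like nuclei its part ran from 4.46 to 24.9% between the 5th and 95th percentile.

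In cardiomyocyte-like nuclei the part of mt-Rnr2 was larger in the low-depth cluster 15 than in cluster 11. How much of the spread came with this difference was not tested. The median nucleus of cluster 15 gave 6.25% (running infarct) to 11.4% (sedentary infarct) of its mitochondrial UMIs to mt-Rnr2, and that of cluster 11 gave 2.84% (running) to 4.89% (sedentary). The pooled values of cluster 15 were higher still, up to 28.1% in the sedentary infarct library, where 10 of 77 nuclei held 83.9% of the mt-Rnr2 UMIs, and without those 10 the value was 10.7%. In both clusters the pooled value was lower in the running than in the sedentary library, at 13.3 against 16.6% and 3.13 against 5.11%.

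Nuclei with a high mitochondrial share also held more of other RNAs that are known to be abundant in the cytoplasm. Within a class and library the tertile of nuclei with the highest share was set against the tertile with the lowest, in CPM of nuclear-gene UMIs. In sedentary cardiomyocyte-like nuclei, with median shares of 9.11 and 2.88%, 74 of 76 measured ribosomal protein genes were at least 1.5-fold higher, against 6.5% of all 5926 nuclear genes with enough UMIs. Rps2, a small-subunit protein, stood at 184 and 57.0 CPM, Rpl27a at 157 and 63.3 CPM, while Rpl3l, a variant found in striated muscle, was near equal at 260.0 and 241 CPM.

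Of the nuclear-encoded respiratory chain subunits 58 of 81 were at least 1.5-fold higher, though those with the most UMIs were not among them: Atp5a1 stood at 467 and 316 CPM, Cox7b at 364 and 276 CPM and Ndufs4 at 319 and 351 CPM. Of 14 abundant cardiomyocyte mRNAs 8 were, and Myh6, the adult myosin heavy chain, was near equal at 10143 and 9895 CPM. In cardiomyocyte-like, fibroblast-like, vascular endothelial-like and macrophage-like nuclei of the 4 libraries the summed ratio was above 1 in 16 of 16 for each of the 3 lists, from 1.46 to 3.90 for ribosomal proteins, 1.43 to 3.47 for respiratory subunits and 1.17 to 4.00 for cardiomyocyte mRNAs. The tertile of high share was also the shallower one, with a median of 5597 against 9243 nuclear-gene UMIs in the sedentary cardiomyocyte-like nuclei and 997 against 9076 in the running infarct ones, and the part of depth was not tested.

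The direction of mt-Rnr2 in this split depended on the class. In cardiomyocyte-like nuclei it held more of the mitochondrial total in the high tertile, with ratios of 1.16, 1.92, 1.79 and 2.73. In fibroblast-like nuclei it held less, at 0.760, 0.723, 0.535 and 0.845, and in vascular endothelial-like nuclei likewise, at 0.901, 0.607, 0.566 and 0.788.

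The nuclear genes that copy, transcribe and process mitochondrial DNA and RNA were looked at in cardiomyocyte-like nuclei, as 46 genes in 3 lists. Of those with enough UMIs by the same minimum, 0 of 36 were past 1.5-fold for running over sedentary, where 3.82% of all nuclear genes were higher and 2.13% lower. For running infarct over running it was 0 of 29, against 7.97% and 6.36%, and for running infarct over sedentary infarct 0 of 26, against 6.17% and 2.87%. Polrmt, the mitochondrial RNA polymerase, stood at 24.7, 22.5, 28.6 and 29.1 CPM, and Tfb2m, its initiation factor, at 25.5, 24.9, 25.3 and 24.1 CPM. Lrpprc, which stabilises mitochondrial mRNAs, stood at 207, 167, 212 and 162 CPM, lower in both libraries of running mice, with ratios of 0.806 and 0.764.

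For sedentary infarct over sedentary 4 of 33 passed 1.5-fold, where 6.28% of all nuclear genes were higher and 5.24% lower. Grsf1 (51.6 and 34.3 CPM) and Angel2 (73.9 and 49.2 CPM), both of RNA processing, were higher, and Mterf2 (10.7 and 17.1 CPM) and Prorp (23.1 and 34.8 CPM), the protein part of the enzyme that cuts transfer RNAs at their 5′ end, were lower. These 4, and Polrmt, Tfb2m and Lrpprc, were named after their values were seen, and no gene of the 3 lists had an interval wholly past 1.5-fold in any of the 4 comparisons.

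Between libraries the nuclear-encoded partners of the 13 proteins moved little by their median in cardiomyocyte-like nuclei. The log2 ratios of the mitochondrial share there were 0.59, -0.031, -0.84 and -0.22, so the second hardly moved either. Within a library the summed partners were higher in nuclei of high share, as given above. The 87 genes of the list had a median log2 ratio of -0.02 for running over sedentary, with 1 of 82 higher and 0 lower by 1.5-fold, where all genes had a median of 0.0016. The medians for the other comparisons were -0.08, -0.06 and -0.03. In fibroblast-like nuclei they were -0.01, -0.28, -0.46 and -0.16, and for running infarct over running 27 of 82 were at least 1.5-fold lower, against 9.71% of all nuclear genes, in the class where the mitochondrial share was 0.318 times. The cluster led by Cemip, Col11a1 and Col12a1 held 321 of the 763 running infarct nuclei of this class and 3 of the 1586 running ones. The part of that cluster in these values was not tested.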

How the data were processed

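Single-nucleus RNA was counted in 4 pooled libraries of frozen mouse ventricle, 1 per group. The deposited files hold untransformed UMI counts (whole numbers for each gene in each barcode), made by the authors with Cell Ranger 7.1 on GRCm39, per the submitters' processing notes; the annotation release and the treatment of reads that map to several places are not given in the sources used here. Barcodes with at least 300 genes were kept. For classes, the highest Scrublet-type doublet scores were removed at 0.8% per 1000 barcodes, because the automatic threshold marked 0, 0, 0 and 1 barcodes, and 232, 312, 84 and 193 were removed. Nuclei were clustered in scanpy 1.11.5 without mt genes (3000 variable genes, 40 components, 15 neighbours, Leiden resolution 1) and named from 142 markers of 18 types, with a naming limit of 0.9 (mean log2 excess) chosen after seeing values. Counts were summed per library and class. Where classes are counted as higher or lower for a gene, only the side of 1 was used, and some of the counting intervals hold 1. Shares have exact binomial intervals (95%), and ratios intervals for counting error only; no test was run, and differences of 1.5-fold are counted as past a fold. The 13 coding and 2 ribosomal RNA genes are named throughout, transfer RNAs with at least 100 UMIs over the 4 libraries may be named, and so may up to 5 machinery genes per comparison whose interval lies farthest past 1.5-fold and the 4 genes with the most UMIs of each list in the split by mitochondrial share. The members and lists were chosen with earlier results of these data known. The scripts were tested on simulated data. A list of RNAs retained in the nucleus, of which 1 of 8 was in the gene list, is not analysed here.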

Additional observations from a re-analysis of the deposited data

Results flagged for a closer look

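The share of mitochondrial UMIs was higher in running than in sedentary mice without infarct and lower with infarct, over all barcodes and in 6 classes, with counting intervals of both ratios clear of 1. The log2 ratio with infarct minus that without was -0.89 over all barcodes, -0.81 in cardiomyocyte-like, -0.48 in vascular endothelial-like, -1.05 in endocardial-like, -0.95 in lymphatic endothelial-like, -0.93 in macrophage-like and -1.17 in mesothelial-like nuclei. The same 2 values, -1.05 and -1.17, are the differences of the infarct effect in endocardial-like and mesothelial-like nuclei, which was up in sedentary and down in running mice. Fibroblast-like and smooth muscle-like nuclei had log2 ratios with infarct of 0.00083 and -0.013, with intervals that hold 0, and pericyte-like nuclei were higher with infarct too, at 0.13. By the medians of the nuclei the log2 ratio with infarct was 0.0028 over all barcodes, with 5 classes higher and 5 lower of 10. The 6 classes above were taken from pooled shares, and by their medians not all of them were lower in running infarct than in sedentary infarct. Each such difference rests on 4 libraries, 1 a group, and was not tested.

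Within the mitochondrial total the effect of running also pointed opposite ways without and with infarct for 6 genes. The difference was -0.56 for mt-Atp8, -0.50 for mt-Cytb, -0.47 for mt-Nd2, -0.28 for mt-Nd3, -0.052 for mt-Co2 and 0.16 for mt-Co3. The effect of infarct pointed opposite ways in sedentary and running mice for 4 genes, with differences of 0.37 for mt-Rnr1, 0.11 for mt-Rnr2, 0.16 for mt-Co3 and -0.052 for mt-Co2. These differences were not tested either.

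The 17 barcodes with under 300 genes, which no comparison used, held 799 mitochondrial UMIs of 14503, a share of 5.51%, and no control without cells was analysed here.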

How the results depend on the processing

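Values are log2 ratios for running over sedentary, sedentary infarct over sedentary, running infarct over running and running infarct over sedentary infarct, in this order; for the mitochondrial share they were 0.64, -0.41, -1.30 and -0.26 over all barcodes and 0.59, -0.031, -0.84 and -0.22 in cardiomyocyte-like nuclei. Over all barcodes, nuclei of at most 5% gave 0.093, -0.093, -0.17 and 0.013 and medians of nuclei 0.71, -0.42, -1.13 and 0.0028, so the last comparison reversed in both; at least 800 genes gave 0.65, -0.40, -1.31 and -0.27, the 13 coding genes alone 0.69, -0.40, -1.31 and -0.22, doublets removed 0.64, -0.41 and -1.31 in the first 3, and at most 20% gave -0.43, -1.28 and -0.21 in the last 3. In cardiomyocyte-like nuclei the infarct comparison in sedentary mice reversed with medians (0.63, 0.13, -0.69 and -0.19), resolution 2 (0.61, 0.0059, -0.81 and -0.21) and Y-negative nuclei (0.68, 0.0090 and -0.90 in the first 3), and running infarct over sedentary infarct reversed at 5% (0.20, -0.13, -0.0081 and 0.32). Same directions came from at most 20% (0.60, -0.054, -0.83 and -0.17), resolution 0.5 (0.60, -0.017, -0.83 and -0.21), libraries clustered alone (0.60, -0.12, -0.87 and -0.15), mitochondrial genes left in (0.60, -0.0063, -0.80 and -0.19), Y-positive nuclei (0.55, -0.045, -0.91 and -0.32) and doublets kept (-0.011, -0.79 and -0.19 in the last 3).

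Alternatives chosen after seeing the data were 2000 to 5000 nuclear-gene UMIs (0.62, -0.26 and -1.14 in the first 3), no mixed clusters (0.61, -0.34, -1.15 and -0.21), no clusters 2 and 15 (0.65, -0.40 and -0.25 without the third) and, for cardiomyocyte-like nuclei, no cluster 15 (-0.039, -0.89 and -0.26 in the last 3). For fibroblast-like nuclei (0.83, -0.82, -1.65 and 0.00083) a naming limit of 1 gave 0.85, -0.60, -1.41 and 0.033 and medians 0.97, -0.97, -1.51 and 0.44. The part of ribosomal RNA in ribosomal RNA plus mRNA (-0.61, -0.087, 0.12 and -0.40) gave -0.26, -0.20, -0.45 and -0.51 at 5%, which reversed the third, -0.10, 0.10 and -0.42 in the last 3 with 800 genes, and -0.14 and -0.35 in the second and last at 20%. The cause was not tested.

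Mitochondrial genes past 1.5-fold within their total (11, 5, 6 and 4) numbered 3, 1, 2 and 1 with at least 1000 UMIs. Among the 13 coding genes alone, relative to their own total, the numbers were 0, 1, 2 and 1. Ribosomal and transfer RNA genes were not counted in that setting. At 5% the first 3 were 4, 3 and 10, and with each nucleus weighed the same the second and last were 3 and 10. Machinery genes past 1.5-fold (0, 4, 0 and 0) numbered 2, 7, 4 and 3 with at least 20 UMIs and 2, 7, 6 and 5 with no minimum, where fewer UMIs enter; at 5% the first 3 were 1, 2 and 1, median-of-ratios size factors gave 1 in the first, and doublets kept gave 1 in the third. For the 15 coding and ribosomal RNA genes 20 of 232 alternative values changed sign, 9 of them at 5% and 0 at 20%. No paired analysis was possible because each group has 1 library. With 1 library per group no library could be left out, and sampling error of mice is unknown.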

Other observations

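Mitochondrial UMIs were concentrated in few nuclei of the rarer classes. In the sedentary infarct library the 10 nuclei with the most held 64.2% of those of the 35 smooth muscle-like nuclei, 33.5% of those of the 112 pericyte-like nuclei and 33.9% of those of the 75 lymphatic endothelial-like nuclei, against 10.3% of those of the 383 cardiomyocyte-like nuclei. Pooled shares of the rarer classes therefore lean on those nuclei more than medians do.

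The ratio of the 2 ribosomal RNAs differed between libraries. mt-Rnr2 had 1.81 times the UMIs of mt-Rnr1 in the sedentary, 1.70 times in the running, 1.91 times in the sedentary infarct and 1.49 times in the running infarct library. The genes lie next to each other on 1 strand with only mt-Tv between them.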
